A study of Homo sapiens with 6 samples.

Results

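The genes described here are NFE2L2, which encodes the transcription factor NRF2, its inhibitor KEAP1, and 8 detoxification and redox genes that NRF2 is known to activate: AKR1C1, AKR1C2, AKR1C3, NQO1, TXNRD1, SRXN1, OSGIN1 and ME1. They were taken by gene name, and 10 of the 20263 genes in the table are described. RNA was measured in 6 libraries of THP-1, an established human monocytic line from an acute myeloid leukaemia. In 3 of them a short hairpin RNA knocked down GOT1, the cytosolic aspartate aminotransferase (shGOT1). The other 3 carried a control hairpin and are labelled wild type (shNC). No growth treatment, time point or further allele is labelled, and the labels name neither another GOT1 hairpin nor a rescue, so other effects of this hairpin cannot be told apart from loss of GOT1.

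In unstressed cells KEAP1 holds NRF2 in the cytoplasm and hands it to a CUL3 ubiquitin ligase for degradation. Electrophiles and oxidants modify cysteines of KEAP1, newly made NRF2 then escapes to the nucleus, pairs with a small MAF protein and binds antioxidant response elements in its target genes. Much of this control acts on the protein, which RNA levels do not show. The targets reduce reactive carbonyls and quinones, recycle thioredoxin and peroxiredoxins, and supply NADPH. In myeloid leukaemia cells NRF2 and the AKR1C enzymes are best known for handling oxidants and drugs.

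The libraries held between 26226977 and 39144890 counts. GOT1, the target, had 430, 510 and 503 counts in shNC but 92, 94 and 136 after knockdown, so it fell by 2.45 on the log2 scale (SE 0.0907, edgeR adjusted p = 0.000013). All 8 myeloid markers were detected, with a summed level of 1101 to 1174 TPM (a level scaled to transcript length and to the library) in shGOT1 and 1576 to 1620 TPM in shNC. The myeloid markers did not move together: MPO (0.67) and CD33 (0.26) rose, and LYZ (-3.05) and CSF1R (-0.85) fell most. The median log2 fold change of the 8 was -0.04, with 2 higher and 4 lower. Of the other cell types' markers, CD3E, CD2, MS4A1, EPCAM and COL1A2 were at 0 in every library, but others were not. The summed epithelial markers reached 4.99 to 5.55 TPM in shGOT1 and 3.02 to 3.38 TPM in shNC. Fibroblast markers summed to 2.81 to 3.07 TPM in shGOT1 and 1.88 to 1.95 TPM in shNC. Erythroid markers summed to 2.90 to 3.69 TPM in shGOT1 and 3.39 to 5.18 TPM in shNC. KRT8 (0.77), COL1A1 (0.93) and PDGFRB (0.47) were called higher and KRT18 (-3.66) lower. The summed B cell markers reached 16.6 to 20.3 TPM in shGOT1 and 10.3 to 11.4 TPM in shNC. Whether the shifts in these marker sums have a part in the changes below was not tested. In bulk RNA fewer cells of a type and less RNA per cell cannot be told apart. The labels call the libraries biological replicates but do not say that they came from separate cultures, so the p-values given below reflect how much these 6 libraries vary.

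The 3 AKR1C genes gave the 3 largest differences among the 10 genes, all lower in shGOT1, while on the counts the other 7 genes differed by less than 1.5-fold in either direction. All 10 genes passed the filter on low counts. In TPM the groups did not overlap for 7 of the 10 genes, beside 55.2% of all genes tested. Of the 10, 6 fell, beside 22.8% of the 13735 genes tested across the table. Only SRXN1 rose, beside 21.9% of all genes tested. KEAP1, NQO1 and TXNRD1 did not pass the threshold, an adjusted p of 0.05 in edgeR's quasi-likelihood test over all genes tested. The median log2 fold change (shGOT1 over shNC) was -0.27 over the 10 genes and 0.00 over all genes tested. With 44.6% of all genes called, a call alone says little here. A fall of at least 2-fold was rarer, at 3.2% of all genes tested, and AKR1C1, AKR1C2 and AKR1C3 each met it.

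**Figure D1:**
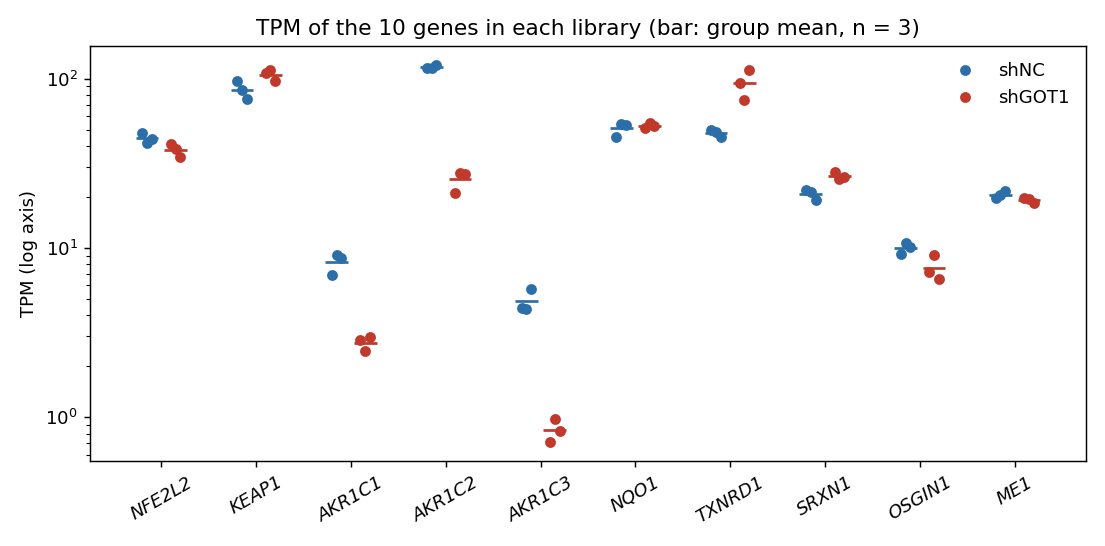
Level of each of the 10 genes in every library, in TPM on a log axis; points are single libraries, coloured by group, and lines mark the group means of 3 libraries. The groups are far apart for AKR1C1, AKR1C2 and AKR1C3, whose shGOT1 means are 2.76, 25.4 and 0.841 TPM beside 8.23, 117.2 and 4.83 TPM in shNC.

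The AKR1C genes encode NADPH-dependent reductases that act on steroids, prostaglandins and the carbonyls left by lipid peroxidation, and they lie side by side on chromosome 10. The windows around their annotated starts are shown because the 3 genes fell together. Each runs from 250 bases before to 50 bases after the start of a RefSeq transcript, on GRCh38.p14 and on the strand of the gene. AKR1C1 is at chr10:4963165-4963464 on the plus strand, AKR1C2 at chr10:5003808-5004107 on the minus strand and AKR1C3 at chr10:5048531-5048830 on the plus strand. Capitals would mark a match on either strand to TGACNNNGC, a spelling of the antioxidant response element core, or to its reverse complement GCNNNGTCA, and these 3 windows hold none.
AKR1C1: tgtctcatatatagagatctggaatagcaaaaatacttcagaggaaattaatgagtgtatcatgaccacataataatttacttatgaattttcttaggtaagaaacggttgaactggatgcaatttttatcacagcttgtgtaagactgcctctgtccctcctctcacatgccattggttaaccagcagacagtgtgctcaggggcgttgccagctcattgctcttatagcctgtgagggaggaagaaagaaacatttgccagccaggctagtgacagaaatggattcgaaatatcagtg
AKR1C2: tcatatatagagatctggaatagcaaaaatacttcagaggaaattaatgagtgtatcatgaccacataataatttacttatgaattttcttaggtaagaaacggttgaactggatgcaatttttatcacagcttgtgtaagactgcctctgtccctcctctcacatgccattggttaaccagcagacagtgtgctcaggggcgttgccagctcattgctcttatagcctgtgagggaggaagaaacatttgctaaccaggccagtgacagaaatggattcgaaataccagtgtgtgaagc
AKR1C3: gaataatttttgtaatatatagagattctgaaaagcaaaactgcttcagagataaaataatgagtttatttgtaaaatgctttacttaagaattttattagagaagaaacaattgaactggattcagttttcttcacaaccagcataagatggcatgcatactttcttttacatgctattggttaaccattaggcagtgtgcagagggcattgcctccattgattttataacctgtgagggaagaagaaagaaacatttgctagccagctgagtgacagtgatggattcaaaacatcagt
The AKR1C1 and AKR1C2 windows were identical at 93.5% of aligned bases. A second RefSeq start of AKR1C3 had no match either, so the letters were in 0 of the 4 AKR1C windows, beside 13.3% of all 34943 windows of this length. That says only that these letters are not in these windows.

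AKR1C2 (ENSG00000151632, chr10:4987400-5017955, minus strand), a reductase of dihydrotestosterone and other ketosteroids, was the highest of the 3. It stood at 21.0, 27.8 and 27.4 TPM after knockdown and at 115.7, 115.2 and 120.7 TPM in the controls. Every shGOT1 library lay far below every shNC library, and the 3 control values lay close together. The group levels were 25.4 ± 3.84 TPM and 117.2 ± 3.07 TPM (SD, n = 3 each), and the log2 fold change on the counts was -2.16 (SE 0.0757, edgeR adjusted p = 1.1e-05), or 4.47-fold lower.

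AKR1C3 (ENSG00000196139, chr10:5048789-5107686, plus strand), which makes testosterone from androstenedione and reduces prostaglandins, had the largest difference and the lowest level of the 10 genes. Its level was 0.716, 0.977 and 0.829 TPM in shGOT1 and 4.43, 4.34 and 5.72 TPM in shNC. Only 19, 30 and 32 counts lie behind the knockdown levels, and 116, 123 and 164 behind the controls. The groups did not overlap, but so few counts in the knockdown leave more counting error than for the other 9 genes. On the log2 scale it fell by 2.59 (SE 0.186, edgeR adjusted p = 0.000142), with a 95% interval of -3.04 to -2.14.

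AKR1C1 (ENSG00000187134, chr10:4963253-4983283, plus strand), which inactivates progesterone, stood at 2.85, 2.46 and 2.97 TPM in shGOT1 and 6.95, 9.07 and 8.66 TPM in shNC. Again the groups did not overlap. It fell by 1.47 on the log2 scale (SE 0.0778, edgeR adjusted p = 4.59e-05), or 2.77-fold lower. The calls of AKR1C1 and AKR1C2 stood under every alternative run, and that of AKR1C3 under every alternative in which it was tested.

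How reads were split among these paralogs bears on the separate values. The GENCODE 29 coding sequences of AKR1C1 and AKR1C2, 972 bases each, were identical at 98% of bases, and 51.8% of the 50-base windows of one also occur in the other. For AKR1C3 the identity was 91.9% with AKR1C1 and 91.3% with AKR1C2, and fewer windows were shared, 14.6% and 18.3%. Values of AKR1C1 and AKR1C2 taken singly are therefore uncertain, whereas their sum does not depend on the split between them. The few counts of AKR1C3 may also hold reads of AKR1C2, which stood far higher. How far its fall is separate from that of AKR1C2 was not tested. Summed, they had 1112, 1396 and 1922 counts in shGOT1 and 4560, 5088 and 5141 in shNC. As a sum they fell by 2.04 on the log2 scale (SE 0.0639, edgeR adjusted p = 8.43e-06).

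Read as a ratio within each library, AKR1C3 was also lower relative to its paralogs in shGOT1 than in shNC. Its level divided by that of AKR1C1 plus AKR1C2 came to 0.0361, 0.0349 and 0.0442 in the controls and to 0.0300, 0.0323 and 0.0273 after knockdown. The groups did not overlap, and the difference was -0.36 on the log2 scale. The 2-sided exact permutation test gave p = 0.1, the smallest that 3 against 3 libraries can give, and p = 0.1 after adjustment over the 4 ratios tested here. Without shGOT1 library 3 the difference was -0.30, and without shNC library 3 it was -0.25. In both the 2-sided exact permutation test gave p = 0.2.

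No tested neighbour of the 3 genes was called lower. AKR1E2, another reductase 176.6 kb before the start of AKR1C1, had 42, 46 and 47 counts in shGOT1 and 29, 38 and 18 in shNC. Its log2 fold change was 0.40 (edgeR adjusted p = 0.332). AKR1C4, the liver member of the cluster, had between 2 and 14 counts and was not tested. NET1, an exchange factor for RhoA 449.3 kb beyond the start of AKR1C1, rose from 42.5 ± 1.95 to 57.97 ± 0.325 TPM (SD, n = 3 each), or by 0.36 on the log2 scale (SE 0.0427, edgeR adjusted p = 0.00105). UCN3, TUBAL3 and CALML3 had no counts, and CALML5 had 2 counts in all. Over the 24 other genes tested within 5 Mb of the AKR1C genes the median log2 fold change was 0.03, with 6 higher and 4 lower.

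**Figure D2:**
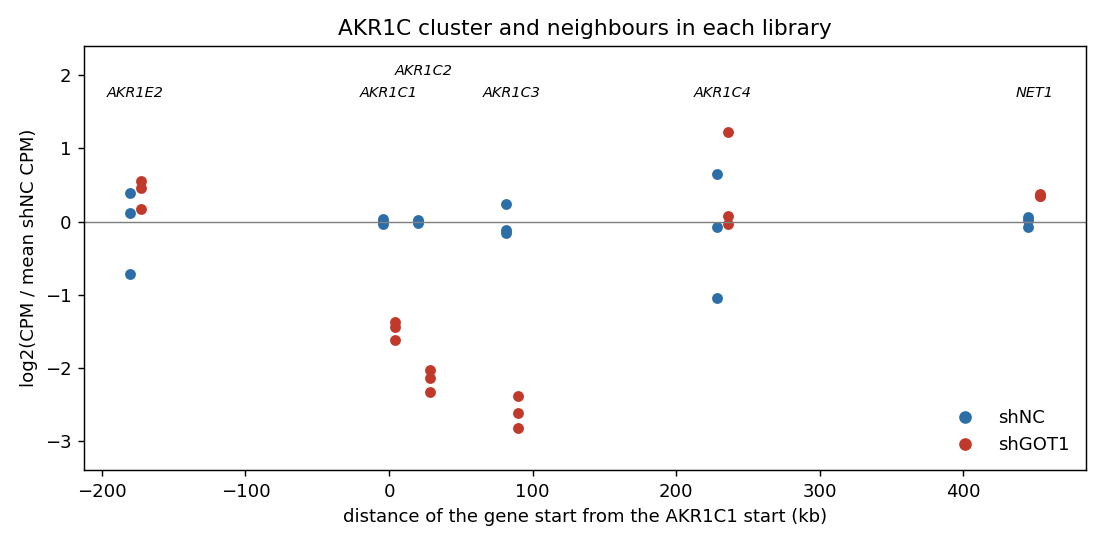
Level of the AKR1C genes and their neighbours in each library, as log2 of CPM over the mean shNC CPM, against the distance of the gene start from the AKR1C1 start in kb; points are single libraries coloured by group. The shGOT1 points of AKR1C1, AKR1C2 and AKR1C3 all lie below their shNC points, with fitted log2 fold changes of -1.47, -2.16 and -2.59, whereas those of AKR1E2 and NET1 lie above 0 and AKR1C4, with 2 to 14 counts, is spread in both groups.

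AKR1C3 had the largest called difference, and the 5 genes whose library profiles lay nearest to its profile also fell strongly. Likeness was the root mean square distance between gene-centred log2 CPM (counts scaled to library size) over the 6 libraries, among genes averaging 5 TPM or more. A small count was added before the log, which shrinks the differences of low-count genes such as AKR1C3. S100A8, a calcium-binding protein abundant in neutrophils and monocytes, was nearest at 0.133, with a log2 fold change of -2.32. HSPA6, an inducible HSP70 chaperone, followed at 0.153 (-2.70) and EPB41L3, a membrane skeleton protein, at 0.169 (-2.72). RTN1, a reticulon of the endoplasmic reticulum, lay at 0.189 (-2.40) and IGSF6, an immunoglobulin-domain receptor of myeloid cells, at 0.216 (-2.58). With 2 groups of 3 libraries this measure mostly picks genes with a strong fall between the groups. Among the 5 the distance did not follow the fitted fold change. IGSF6, at -2.58 the closest to the -2.59 of AKR1C3, was the farthest of them.

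NFE2L2 (ENSG00000116044, chr2:177227595-177392697, minus strand) was modestly lower in the knockdown. Its level was 41.0, 38.6 and 34.4 TPM in shGOT1 and 47.7, 41.7 and 44.1 TPM in shNC. All shGOT1 values lay below all shNC values, with a gap of under 1 TPM between the nearest libraries. NFE2L2 fell by 0.33 on the log2 scale (SE 0.0550, edgeR adjusted p = 0.00419), with a 95% interval of -0.46 to -0.19. On log2(TPM + 1) it was -0.22, and limma gave an adjusted p of 0.0719. The gene's span overlaps AGPS on the opposite strand, whose log2 difference was 0.09 (edgeR adjusted p = 0.255), and how counting treated the strand is not known here.

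KEAP1 (ENSG00000079999, chr19:10486120-10503741, minus strand) stood at 107.9, 112.6 and 96.4 TPM in shGOT1 and 97.3, 85.3 and 76.0 TPM in shNC. The lowest knockdown library was just under the highest control library, so the groups overlapped. The log2 fold change on the counts was 0.02 (SE 0.157, edgeR adjusted p = 0.933, 95% interval -0.36 to 0.40), which leaves room for a change of either sign. Scaled to library size, shGOT1 spanned 111 to 114 CPM and shNC 87.4 to 138 CPM so the controls were far more spread than the knockdown libraries. Counts and TPM differed for this gene: on log2(TPM + 1) the difference was 0.29 (limma adjusted p = 0.0624).

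The level of NFE2L2 relative to KEAP1 can be read within a library, with no scaling between libraries. This ratio came to 0.490, 0.489 and 0.580 in the controls and to 0.380, 0.343 and 0.357 after knockdown. Every knockdown library was below every control library, and the difference was -0.53 on the log2 scale (2-sided exact permutation p = 0.1, the smallest possible). The direction held under each of the 8 alternatives run for this ratio. On counts the difference was smaller, at -0.37 on the log2 scale, and a ratio of TPM still depends on the transcript lengths used.

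Among the genes that govern NRF2, TRIM21 and CUL3 rose and BACH1, ENC1, NFE2L3, RBX1 and RXRA fell. Of 24 regulators listed, other than NFE2L2 and KEAP1, 23 were tested, of which 2 rose (8.70%) and 5 fell (21.7%), beside 21.9% and 22.8% of all genes tested, with a median log2 fold change of -0.04. The balance depended on the scaling, with 8 higher and 4 lower under limma on log2(TPM + 1) and 6 higher and 4 lower with the total count as the only scaling. Over all genes these settings also gave more rises than falls, with 28% higher and 14.1% lower under limma. With the total count 3773 of 13735 genes were higher and 2542 lower. BACH1, the haem-sensing repressor that competes with NRF2 for the same elements, had 20.8, 18.0 and 19.3 TPM in shNC and 12.3, 10.5 and 12 TPM in shGOT1. The groups did not overlap, and BACH1 fell by 0.81 on the log2 scale (SE 0.0530, edgeR adjusted p = 9.93e-05). ENC1, a Kelch-repeat protein, fell by 0.83 on the log2 scale, and NFE2L3, a relative of NRF2, by 0.41. RBX1, the RING subunit of the CUL3 ligase, fell by 0.25 and RXRA, a nuclear receptor reported to bind NRF2, by 0.13, a call lost with the total count as the only scaling and in limma on TPM or FPKM. TRIM21, a ubiquitin ligase that acts on the KEAP1 partner SQSTM1, rose from 48.2 ± 2.02 to 80.8 ± 1.27 TPM (SD, n = 3 each; log2 fold change 0.66, edgeR adjusted p = 0.000121). CUL3, the ligase scaffold, rose by 0.18 (edgeR adjusted p = 0.0234), a call that stood in 2 of 6 fits with 1 library left out.

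SQSTM1, the autophagy receptor p62 that sequesters KEAP1, had 124, 139 and 176 TPM in shGOT1 and 228, 231 and 145 TPM in shNC. The third control library fell among the knockdown libraries, and the log2 fold change of -0.49 was not called (SE 0.294, edgeR adjusted p = 0.232). Without that control library it was -0.73 and was called (edgeR adjusted p = 0.0493). The small MAF partners MAFF, MAFG and MAFK were not called, with MAFG at -0.04, and neither was NFE2L1 at -0.35. On log2(TPM + 1) MAFG turned to 0.15 and was called higher (limma adjusted p = 0.0296), as it was on log2(TPM + 0.1) and log2(TPM + 5). With the replicate number as a block MAFK and NFE2L1 were called lower (edgeR adjusted p = 0.0366 and 0.0175), and 7 regulators fell. BACH2 had no counts. BACH1 overlaps GRIK1, so reads of that pair may have been shared.

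TXNRD1 (ENSG00000198431, chr12:104215779-104350305, plus strand), the cytosolic selenoprotein that reduces thioredoxin, is a textbook NRF2 target, as is ME1. Their start windows are shown because the letters TGACNNNGC occur there. Of the 14 windows of the 10 genes, 4 held the motif, and 3 of the 10 genes did, beside 16.1% of 27167 genes with a window. The third of those genes is KEAP1, with matches at -54 and -31. In the lines here capitals mark each match on either strand. The TXNRD1 window at chr12:104215529-104215828 has matches starting at -99 and -8 relative to the annotated start, and that at chr12:104286782-104287081 has 1 at -102. The ME1 window, at chr6:83431002-83431301 on the minus strand, has matches at -137, which overlaps the AP-1 core TGANTCA, and at 11.
TXNRD1: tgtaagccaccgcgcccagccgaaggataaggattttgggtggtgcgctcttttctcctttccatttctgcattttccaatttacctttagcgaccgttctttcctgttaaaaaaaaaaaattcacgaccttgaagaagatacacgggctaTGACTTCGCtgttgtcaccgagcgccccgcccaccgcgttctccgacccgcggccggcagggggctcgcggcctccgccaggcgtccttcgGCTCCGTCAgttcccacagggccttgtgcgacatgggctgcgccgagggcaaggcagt
TXNRD1: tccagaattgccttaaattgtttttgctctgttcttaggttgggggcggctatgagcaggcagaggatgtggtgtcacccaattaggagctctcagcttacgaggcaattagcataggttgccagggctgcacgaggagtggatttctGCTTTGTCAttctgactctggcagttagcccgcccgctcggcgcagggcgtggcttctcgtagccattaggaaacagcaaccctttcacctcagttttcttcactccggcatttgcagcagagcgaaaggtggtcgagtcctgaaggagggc
ME1: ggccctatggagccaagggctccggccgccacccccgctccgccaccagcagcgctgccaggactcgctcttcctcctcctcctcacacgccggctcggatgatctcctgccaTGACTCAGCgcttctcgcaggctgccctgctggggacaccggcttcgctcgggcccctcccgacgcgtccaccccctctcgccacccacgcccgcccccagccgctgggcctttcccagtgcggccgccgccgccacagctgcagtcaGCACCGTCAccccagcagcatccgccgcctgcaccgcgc
A match to these letters is a description and does not show that NRF2 bound there in these cells.

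The readings of TXNRD1 depended on the unit. Its level was 93.8, 75.1 and 112.5 TPM in shGOT1 and 49.4, 48.6 and 45.2 TPM in shNC, so the knockdown libraries were all higher, by a wide margin. Its raw counts were 3058, 3344 and 6259 in shGOT1 and 2433, 2474 and 2562 in shNC. Scaled to library size these were 112, 105 and 156 CPM in shGOT1 and 94.98, 89.1 and 90.8 CPM in shNC, which also did not overlap but lay much closer. On the counts the log2 fold change was 0.44 (SE 0.151) and edgeR's adjusted p was 0.0558, just short of a call. On log2(TPM + 1) it was 0.94 (limma adjusted p = 0.00337).

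Library 3 of shGOT1 held the highest TXNRD1 value on either scale. Without it the log2 fold change on the counts was 0.24 and edgeR's adjusted p was 0.0167. Without shGOT1 library 2 it was 0.55 (edgeR adjusted p = 0.0366). DESeq2 on all 6 libraries called the gene higher with an adjusted p of 0.0126. These were not the rule: the gene was called in 2 of 6 fits with 1 library left out, and in 8 of 17 alternatives. It was not called without shGOT1 library 1, without any 1 control library, or with the replicate number as a block.

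Counts and TPM of a gene differ by a factor that follows the transcript length used for it in that library. This factor, count per TPM divided by the median of the library, came to 0.889, 1.03 and 1.04 for TXNRD1 after knockdown and to 1.33, 1.26 and 1.40 in the controls. The groups did not overlap, and the difference was -0.43 on the log2 scale. Leaving out any 1 library gave -0.47 to -0.36. Of the 10159 genes averaging 5 TPM or more, 62 (0.610%) differed by as much, and in 12% of them the groups did not overlap. Of the 9 genes described here above that level, TXNRD1 alone did not overlap; AKR1C3, below it, did not either, but its means of 0.718 and 0.706 lay close together. For KEAP1 the difference was -0.15, with overlap. GENCODE 29 lists 19 coding transcripts of TXNRD1, of 400 to 4277 bases. The table holds 1 value per gene, so which transcripts were present was not tested.

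**Figure D3:**
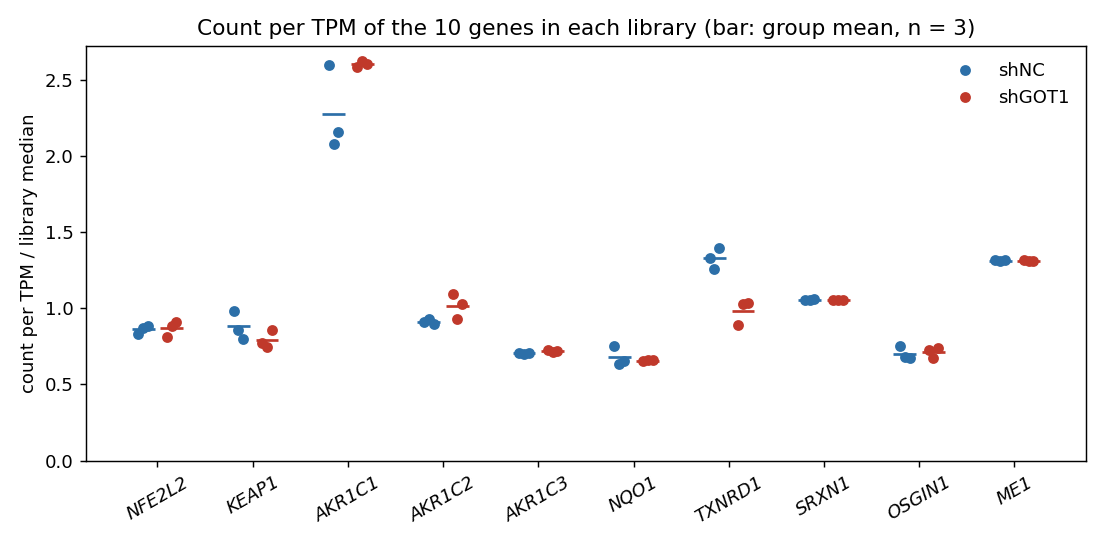
Count per TPM divided by the library median, a relative measure of the transcript length used, for the 10 genes; points are single libraries coloured by group and bars are group means of 3 libraries. TXNRD1 lies at 0.889 to 1.04 in shGOT1 and at 1.26 to 1.40 in shNC, while the groups overlap for the other 8 genes above 5 TPM and differ little for AKR1C3, with means of 0.718 and 0.706.

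EID3, a gene inside the TXNRD1 span on the same strand, had 18, 27 and 37 counts in shGOT1 and 48, 52 and 67 in shNC. It fell by 1.32 on the log2 scale (edgeR adjusted p = 0.00299), against the direction of TXNRD1. TXNRD2, the mitochondrial thioredoxin reductase, rose by 0.22. The level of TXNRD1 relative to TXNRD2 came to 1.60, 1.27 and 2.03 after knockdown and to 1.202, 1.05 and 0.986 in the controls. These TPM values did not overlap, and the log2 difference was 0.58 (2-sided exact permutation p = 0.1, the smallest possible). On counts the log2 difference was 0.20, and the 2-sided exact permutation test gave p = 0.4. With any 1 control library left out, the 2-sided exact permutation test on TPM gave p = 0.2. With any 1 knockdown library left out, the 2-sided exact permutation test on TPM gave p = 0.1.

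SRXN1 (ENSG00000271303, chr20:646615-653370, minus strand), sulfiredoxin, restores overoxidised peroxiredoxins. It stood at 28.0, 25.4 and 26.2 TPM in shGOT1 and 21.9, 21.5 and 19.3 TPM in shNC, without overlap. It rose by 0.24 on the log2 scale (SE 0.0675, edgeR adjusted p = 0.0293). The call was near the threshold: without shGOT1 library 1 or 3, or shNC library 2 or 3, the adjusted p was 0.0855, 0.0627, 0.0523 and 0.0636.

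NQO1 (ENSG00000181019, chr16:69706996-69726951, minus strand), the quinone reductase that is often read as a gauge of NRF2 activity, showed little difference. Its level was 50.8, 54.8 and 52.7 TPM in shGOT1 and 45.2, 53.7 and 53.6 TPM in shNC. The groups overlapped. Its fold change on the log2 scale was -0.10 (SE 0.0474, edgeR adjusted p = 0.145), and the 95% interval of -0.21 to 0.02 holds no change of the size seen for the AKR1C genes. On log2(TPM + 1) the sign turned, at 0.06 (limma adjusted p = 0.597).

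OSGIN1 (ENSG00000140961, chr16:83948282-83966332, plus strand), an oxidative stress-induced growth inhibitor, had 7.19, 9.03 and 6.52 TPM in shGOT1 and 9.15, 10.6 and 10.2 TPM in shNC. The nearest libraries of the 2 groups almost touched. OSGIN1 fell by 0.49 on the log2 scale (SE 0.112, edgeR adjusted p = 0.0141), and on log2(TPM + 1) the difference was -0.37 with a limma adjusted p of 0.0568.

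ME1 (ENSG00000065833, chr6:83210389-83431071, minus strand), the cytosolic malic enzyme that makes NADPH from malate, had 19.7, 19.4 and 18.4 TPM in shGOT1 and 19.7, 20.5 and 21.7 TPM in shNC. In TPM the groups met at 19.7, whereas in CPM they did not overlap, with 32.4 to 34.8 in shGOT1 and 37.4 to 41.1 in shNC. ME1 fell by 0.21 on the log2 scale (SE 0.0548, edgeR adjusted p = 0.0233). The call was lost without shGOT1 library 3 (0.063) or shNC library 2 (0.0555) or 3 (0.0663), and limma on log2(TPM + 1) gave -0.10 (adjusted p = 0.225).

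ME2, the mitochondrial malic enzyme, went the other way and rose by 0.31. The level of ME1 relative to ME2 came to 0.723, 0.841 and 0.743 after knockdown and to 1.06, 1.07 and 0.997 in the controls. Every knockdown library was below every control library, and the log2 difference was -0.44 (2-sided exact permutation p = 0.1, the smallest possible).

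**Figure D4:**
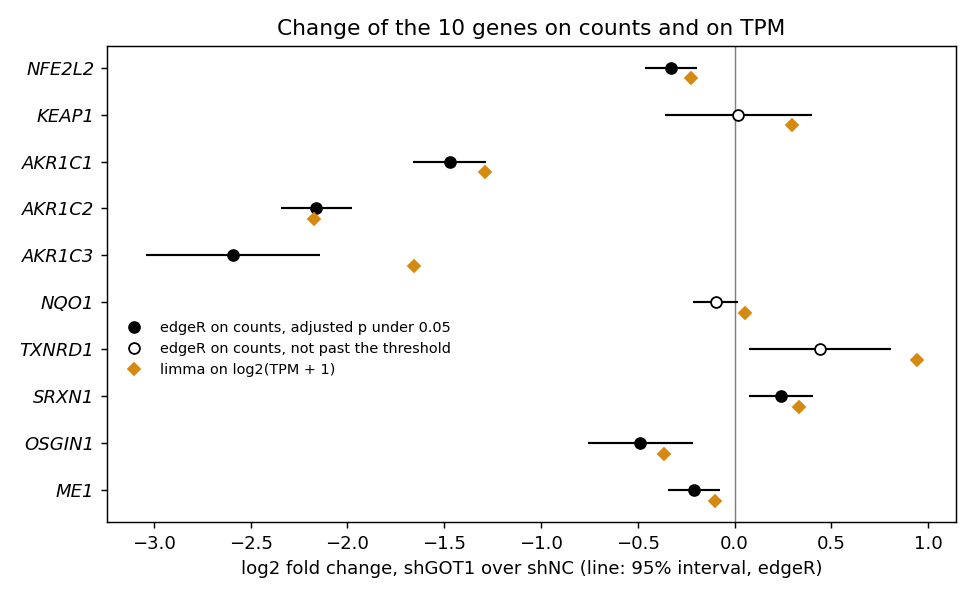
Log2 fold change of shGOT1 over shNC for the 10 genes, from edgeR on the counts with its 95% interval (circles, filled where called) and from limma on log2(TPM + 1) (diamonds). The AKR1C genes lie at -1.47 to -2.59 on the counts, the intervals of KEAP1 and NQO1 include 0, and both measures differ for TXNRD1, 0.44 against 0.94, and for AKR1C3, whose low level the pseudocount pulls towards 0.

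The order of the 10 genes by level changed mainly through AKR1C2 and TXNRD1. In shNC AKR1C2 was highest at 117.2 TPM and KEAP1 followed at 86.2 ± 10.7 TPM (SD, n = 3). NQO1, TXNRD1 and NFE2L2 came next, at 50.9, 47.7 and 44.5 TPM, and neighbours in that order overlapped. SRXN1 and ME1, at 20.9 and 20.6 TPM, overlapped too, and OSGIN1, AKR1C1 and AKR1C3 closed the order at 9.996, 8.23 and 4.83 TPM. In shGOT1 KEAP1 led at 105.6 ± 8.32 TPM and overlapped TXNRD1 at 93.8 ± 18.7 TPM, while AKR1C2 at 25.4 TPM overlapped SRXN1 at 26.5 TPM. As TPM depends on the transcript length used, the place of TXNRD1 and of the AKR1C genes in these orders carries that uncertainty.

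The other genes of the pathway were counted in 6 lists. Of 130 listed genes found in the table, the 10 described above excluded, 118 were tested: 25 rose (21.2%), 41 fell (34.7%) and 52 were not called. The median log2 fold change was -0.06, beside 0.00 over all genes tested. Read against 21.9% higher and 22.8% lower over the whole table, the rises were near the background and the falls above it. Limma on log2(TPM + 1) called 39 higher and 29 lower, where 28% of all genes were higher and 14.1% lower. A share of the falls lay in the first 50 Mb of chromosome 1, where 69.9% of 465 genes tested across the table were called lower, with a median log2 fold change of -0.60. None of the 10 genes lies there. Without list genes of that stretch 25 rose and 32 fell. Over all genes tested, the same stretch held 26 of the 3002 rises and 325 of the 3126 falls. Whether the share of list genes that fell outside that stretch stays above the background there was not tested.

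Among NRF2 targets besides the 8 described, 41 were tested, 7 rose (17.1%) and 15 fell (36.6%), beside 21.9% and 22.8% of all genes tested. The median log2 fold change was -0.13. Limma on log2(TPM + 1) gave 12 higher and 11 lower, where 28% and 14.1% of all genes were called. The total count as the only scaling gave 11 and 13, where 3773 and 2542 of all 13735 genes were called. The replicate block gave 4 and 13, and leaving out shNC library 2 or 3 gave 4 and 14. The largest falls were PGD of the pentose phosphate pathway (-1.05), HMOX1, haem oxygenase (-0.91), FTL, the ferritin light chain (-0.89), and the carbonyl reductase CBR3 (-0.88). HMOX1 stood at 17.9, 16.2 and 16.8 TPM in shGOT1 and 28.1, 30.7 and 30.2 TPM in shNC, without overlap. GSTM3, a glutathione transferase, rose most (1.08), followed by CBR1 (0.60), GCLM (0.44) and the exporter ABCC4 (0.27). The calls of CBR1 and ABCC4 each stood in only 2 of 6 fits with 1 library left out. GCLC and GCLM, the catalytic and modifier subunits of the enzyme that starts glutathione synthesis, moved apart, with GCLC at -0.84 and GCLM at 0.44.

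Of the wider aldo-keto reductase family 9 genes were tested, 1 rose (11.1%) and 4 fell (44.4%), beside 21.9% and 22.8% of all genes tested. All 4 falls, AKR1A1 (-0.92), KCNAB2 (-0.91), AKR7A3 (-0.82) and AKR7A2 (-0.77), lay in the first 50 Mb of chromosome 1. Of the 4 tested elsewhere, 1 rose and 0 fell. AKR1B1, the aldose reductase, rose by 0.35. Genes that reduce or oxidise quinones, carbonyls and epoxides were split, with 6 of 19 higher (31.6%) and 8 lower (42.1%). Limma on log2(TPM + 1) gave 7 higher and 4 lower, where 28% and 14.1% of all genes were called. The replicate block gave 3 and 8, and 3 were higher and 7 lower without shGOT1 library 2, shNC library 2 or shNC library 3. Among them ALDH1A1, a retinal dehydrogenase, rose by 1.38, from 2.88, 1.59 and 2.19 TPM in shNC to 6.59, 5.89 and 6.18 TPM in shGOT1. EPHX2, soluble epoxide hydrolase, rose by 0.55 and the prostaglandin reductase PTGR2 by 0.35. FMO5 (-0.55), ALDH2 (-0.37) and DHRS4 (-0.35) fell beside CBR3. PTGR2 was called in 3 of 6 fits with 1 library left out, and FMO5 and ALDH2 were not called on log2(TPM + 1).

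In the thioredoxin and peroxiredoxin system 23 genes were tested, 5 rose (21.7%) and 7 fell (30.4%), with a median of 0.01. Over all genes tested 21.9% rose and 22.8% fell. The balance of the list turned around in limma on log2(TPM + 1), with 10 higher and 4 lower, and with the total count as the only scaling, with 8 and 5. The whole table moved the same way in both, with 28% of all genes higher and 14.1% lower in limma. With the total count 3773 of 13735 genes were higher and 2542 lower. PRDX4 of the endoplasmic reticulum (0.51), nucleoredoxin NXN (0.37), the methionine sulfoxide reductase MSRB1 (0.36) and PRDX6 (0.34) rose. SESN2, a stress-induced sestrin (-0.91), PRDX1 (-0.51), glutaredoxin GLRX (-0.42) and TXNDC17 (-0.34) fell. SESN2 and PRDX1 lie in the first 50 Mb of chromosome 1, and elsewhere 5 genes of the list rose and 5 fell. Of the enzymes that supply NADPH 16 were tested, 5 rose (31.25%) and 8 fell (50%), with a median of -0.08. NADK, the cytosolic NAD kinase (-1.16), and PGD (-1.05) fell most, followed by transketolase TKT (-0.47). NADK and PGD are among the 3 genes of this list in the first 50 Mb of chromosome 1, which all fell, and elsewhere 5 rose and 5 fell. ME3 (0.44), IDH1 (0.40), NADK2 (0.31) and ME2 (0.31) rose. Several of these genes overlap another gene with which reads may be shared: CBR1 with SETD4, PRDX1 with MMACHC, GLRX with RHOBTB3, KCNAB2 with NPHP4, PTGR2 with ZNF410, FMO5 with CHD1L, and TXNDC17 with MED31. FTL, which has processed pseudogenes, and DHRS4, which has close copies beside it, are uncertain for the same reason. TXNDC17 was called in 2 and NADK2 in 3 of 6 fits with 1 library left out, and TXNDC17 was not called on log2(TPM + 1).

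**Figure D5:**
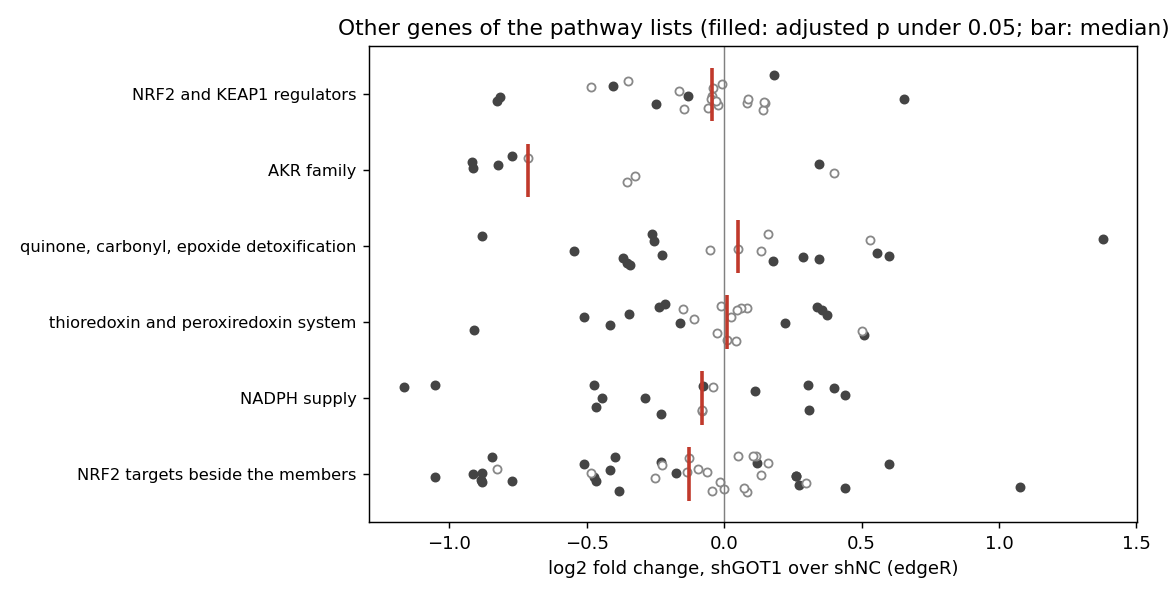
Log2 fold change (edgeR) of each tested gene in the 6 lists, the 10 described genes excluded, with 1 row per list; filled points are called genes, open points are not, and the red bar is the list median. The 41 other NRF2 targets have 7 higher (17.1%) and 15 lower (36.6%), beside 21.9% and 22.8% of all genes tested. The 4 falls of the aldo-keto reductase list all lie between -0.77 and -0.92.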

How the data were processed

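Poly(A)-selected RNA, per the labels' protocols, was sequenced from 3 shGOT1 and 3 shNC samples. The table used gives counts, TPM and FPKM for each of 20263 genes. The counts the authors deposited are whole numbers with unequal totals, so not normalized. The authors' TPM and FPKM are scaled to transcript length and depth. The tools named are Trimmomatic, FastQC, DESeq2 and StringTie, per the submitters' processing notes. The sources used here give no aligner, genome build or strand setting. Counts made with StringTie come from coverage and may differ from read numbers. Coordinates are as the table gives them; 80.5% of the IDs found in GENCODE 29 have identical GRCh38 coordinates there.

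From the counts, edgeR 4.0.16 (filterByExpr, TMM, quasi-likelihood test, 2-sided, Benjamini-Hochberg threshold 0.05) tested 13735 genes in 1 fit of 6 samples, and no p was adjusted over a list alone. The SE is the log2 fold change divided by the root of the quasi-likelihood F. Alternatives used limma 3.58.1 on log2 TPM and FPKM, DESeq2 1.42.0, other scalings and filters, a replicate block and leaving out each library. The 10 genes and the lists were chosen with earlier results of these data known. Named besides these 10 and GOT1 were the regulators, up to 4 called rises and 4 falls per list, genes within 0.5 Mb of the AKR1C genes, the 5 nearest to AKR1C3, and genes a sentence needed, chosen after their values were seen (GCLC, TXNRD2, EID3 and AGPS). Some genes that this rule takes are not reported. Total counts per library set the counting error. The edgeR step was tested on simulated data for this comparison, with 13603 genes past the filter. It found 45% of 100 planted 1.5-fold changes and 77% of 100 planted 2-fold changes. False calls were 0.0517% of the 13535 genes left unchanged, counted before the filter. Far fewer genes were changed there than the 44.6% called in the real data, and none were planted in low-count genes. These shares therefore need not hold for the real comparison. Promoter windows are from RefSeq on GRCh38.p14.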

Additional observations from a re-analysis of the deposited data

How the results depend on the processing

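The fall of AKR1C1, AKR1C2 and AKR1C3 kept its direction and call under every alternative in which each was tested, and AKR1C3 is too low for the filter at a mean of 5 TPM. Of 170 alternative values of the log2 fold change of the 10 genes, 136 kept direction and call, 20 lost the call, 8 gained it and 6 changed sign. The sign changes were KEAP1 at -0.0081 without shNC replicate 2 and -0.13 without shNC replicate 3 (0.21 without shNC replicate 1), and NQO1 at 0.0559, 0.0569 and 0.0517 with limma on log2 TPM with pseudocounts of 1, 0.1 and 5 and 0.0181 with FPKM; the cause was not tested. Of the 10 genes, 2 were called higher with DESeq2, with the total count as the only scaling, and with limma on TPM at each pseudocount or on FPKM. With limma on TPM 3 were called lower at each pseudocount. Over all genes DESeq2 called 17.5% higher, and limma on log2(TPM + 1) 28% higher and 14.1% lower. The total count only gave 3773 of 13735 genes higher and limma on FPKM 3361, so the 2 rises were near or below these shares. Leaving out 1 library gave 0 to 2 higher and 5 to 6 lower of the 10, beside 2402 to 2592 higher and 2706 to 2767 lower over all genes. Over all genes limma on TPM called 1939, 1931 and 1937 lower at pseudocounts of 1, 0.1 and 5, against 3126, and 39, 38 and 39 genes of the pathway lists higher, against 25. Rises made up 49.0% of calls in edgeR, 59.7% with the total count only, 66.4% with limma on log2(TPM + 1) and 60.5% on FPKM. Log2(TPM + 0.1) moved the median of all genes by 0.11. Samples sharing a replicate number did not deviate together (correlations 0.0282, 0.00893 and -0.000322). This cannot tell whether the samples were prepared in pairs, and the labels do not say. With the replicate block 2497 genes were higher and 2725 lower, and of the 10 genes 1 was higher and 5 lower, ME1 losing its call (adjusted p = 0.0734). AKR1C3, with 19 to 32 counts in shGOT1, is the value that depth limits most.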

Other observations

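Counts and TPM went in different directions for 2 detoxification genes of the lists. A single library stood apart in each, but for NQO2 the count per TPM also differed between the groups. NQO2, the quinone reductase related to NQO1, had 882, 1107 and 1340 counts in shGOT1 and 711, 732 and 438 in shNC, while its level was 13.2, 11.3 and 14.8 TPM in shGOT1 and 14.4, 16.1 and 23.2 TPM in shNC. It was not called (edgeR adjusted p = 0.0891), but 2 of 17 alternatives called it, DESeq2 and the fit without shNC library 3. Its count per TPM, divided by the library median, was 0.465 in shNC library 3, the lowest of the 6, beside 1.34 and 1.12 in the other controls. Every shGOT1 library lay above every control in this measure. ALDH2, the mitochondrial aldehyde dehydrogenase, had 54.2 TPM in shGOT1 library 1 and 19.8 to 27.3 TPM in the other 5 libraries, from counts that were the lowest of the 6 there, at 1756. Its count per TPM was 0.885 in that library and 2.11 to 2.57 in the others. These values were chosen after they were seen, and their cause was not tested.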
